A study of Mus musculus with 8 samples.

Results

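Il6, Tnf, Il1b, Il1rn, Ccl2, Ccl3, Ccl4, Cxcl2, Cxcl10 and Il18r1 are 10 mouse genes of inflammatory signalling, taken by symbol from the 20880 genes that the array's probes could be matched to. Of these 10, 9 passed the filter on dim probes, as did 13184 genes in all; Il1rn did not. The expression of these genes was read in 2 populations of bone marrow cells. LSK cells are lineage-negative, Sca-1 and c-Kit positive cells and contain the blood stem cells, and MEP are the progenitors of megakaryocytes and red cells. The cells came from mice on a C57BL/6 background. Marrow of JAK2V617F;Ezh2flox/flox;Cre-ERT2, JAK2V617F;Cre-ERT2, Ezh2flox/flox;Cre-ERT2 and Cre-ERT2 donors was given to lethally irradiated wild-type recipients positive for CD45.1, with deletion of Ezh2 4 weeks later and sorting 2 months after the transplant. The resulting genotypes are called here double-mutant (JAK2V617F/Ezh2Δ/Δ), JAK2V617F, Ezh2-deleted (Ezh2Δ/Δ) and WT, and all of them, WT included, carry Cre-ERT2. Recipients keep host cells outside the graft, and the labels do not say how many animals gave each sample.

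Each of the 8 combinations of genotype and cell type was measured on 1 one-colour Agilent array from 20 ng of RNA, so no group has a replicate. Tests therefore rest on differences that recur over the other factors, and the order of single arrays has no spread to set it against. The labels do not say whether the LSK and MEP samples of a genotype came from the same animals. If they did, the LSK and MEP pairs of a genotype comparison are not independent, and its p-values may be too small. JAK2V617F is an activating mutation of the kinase that signals for the erythropoietin and thrombopoietin receptors. Ezh2 is the enzyme of Polycomb complex PRC2 that methylates histone H3 at lysine 27, a mark of silenced genes. The labels do not say whether the JAK2V617F allele is a transgene or a knock-in, or what promoter drives it.

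The proteins fall into 3 groups by role. Interleukin 6 (Il6), tumour necrosis factor (Tnf) and interleukin 1 beta (Il1b) are cytokines that start and spread inflammation, and Il1rn is the natural antagonist that occupies the interleukin 1 receptor. Ccl2 attracts monocytes, Ccl3 and Ccl4 attract monocytes and T cells, Cxcl2 attracts neutrophils, and Cxcl10 is an interferon-inducible chemokine for activated T cells. Il18r1 is the subunit of the interleukin 18 receptor that binds the cytokine. Most of these genes are turned on by NF-kB, AP-1 or interferon-activated factors in myeloid cells, and blood progenitors can both make and sense such cytokines.

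On assembly GRCm38.p6, Il6, Cxcl2 and Cxcl10 lie on chromosome 5, with Il6 at chr5:30013114-30019975, Cxcl2 at chr5:90903899-90905938 and Cxcl10 at chr5:92346638-92348889. Ccl2 (chr11:82035577-82037452), Ccl3 (chr11:83647843-83649378) and Ccl4 (chr11:83648624-83664683) lie on chromosome 11, and the annotated spans of Ccl3 and Ccl4 overlap. Il1b (chr2:129364569-129371164) and Il1rn (chr2:24336860-24351491) lie on chromosome 2. Tnf (chr17:35199367-35202007) lies on chromosome 17 and Il18r1 (chr1:40465552-40500854) on chromosome 1.

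Promoters of 4 members are shown because Il6 and Il18r1 carry the calls for JAK2V617F below, and Cxcl2 and Cxcl10 are the uncalled members with the next larger differences. The sequences are RefSeq's on GRCm38.p6, 300 bases each around the annotated start (the last 50 lie at or after it), 5′ to 3′ on the gene's strand. Il6 is chr5:30012864-30013163 on the plus strand, Cxcl2 is chr5:90903649-90903948 on the plus strand, Cxcl10 is chr5:92348840-92349139 on the minus strand, and Il18r1 is the last of its 3 annotated starts, chr1:40465756-40466055 on the plus strand. Capitals mark matches to the motifs described after the sequences.
Il6: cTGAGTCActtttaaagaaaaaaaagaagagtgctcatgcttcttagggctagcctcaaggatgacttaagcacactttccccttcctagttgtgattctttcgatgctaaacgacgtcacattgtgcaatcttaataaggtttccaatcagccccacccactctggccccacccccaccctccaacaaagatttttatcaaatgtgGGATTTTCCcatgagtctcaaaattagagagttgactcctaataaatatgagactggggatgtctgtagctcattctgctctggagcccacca
Cxcl2: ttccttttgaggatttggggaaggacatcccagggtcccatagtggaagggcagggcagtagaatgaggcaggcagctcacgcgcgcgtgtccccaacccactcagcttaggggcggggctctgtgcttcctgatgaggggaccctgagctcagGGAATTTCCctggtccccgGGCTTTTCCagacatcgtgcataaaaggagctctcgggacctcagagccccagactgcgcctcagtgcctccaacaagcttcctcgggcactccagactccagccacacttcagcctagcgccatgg
Cxcl10: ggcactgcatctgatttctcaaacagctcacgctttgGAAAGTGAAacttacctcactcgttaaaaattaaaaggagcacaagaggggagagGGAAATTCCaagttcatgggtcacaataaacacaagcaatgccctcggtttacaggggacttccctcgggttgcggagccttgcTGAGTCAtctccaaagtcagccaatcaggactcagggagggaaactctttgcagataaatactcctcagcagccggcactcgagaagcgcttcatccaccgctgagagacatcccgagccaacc
Il18r1: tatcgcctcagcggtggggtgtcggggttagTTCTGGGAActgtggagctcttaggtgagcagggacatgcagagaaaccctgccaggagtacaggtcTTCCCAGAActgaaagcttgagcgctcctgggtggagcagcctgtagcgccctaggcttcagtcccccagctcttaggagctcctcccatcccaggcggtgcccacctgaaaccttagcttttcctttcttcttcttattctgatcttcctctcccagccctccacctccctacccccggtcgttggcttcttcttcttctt

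Motifs were searched on both strands of every promoter in the table. The letters were GGNNTTTCC for NF-kB (its last 9 letters), TGANTCA for AP-1, GAAANNGAA for the core of the interferon-stimulated response element and TTCNNNGAA for STAT factors. These motifs occur in 5.82%, 7.81%, 8.56% and 8.30% of all 32851 promoters in that order. Promoters were found for 8 of the 10 genes. Counting a gene when any of its promoters matched, the NF-kB letters were in 4 of these 8 genes, AP-1 in 3, the interferon core in 2 and STAT in 1. Over the 27025 genes of the table these shares were 6.62%, 8.97%, 9.76% and 9.55%. The Il6 promoter has GGATTTTCC at -43 and TGAGTCA at -249 from the start. The Cxcl2 promoter has GGAATTTCC at -96 and GGCTTTTCC at -77. The Cxcl10 promoter holds 3 kinds of match, GAAAGTGAA at -213, GGAAATTCC at -158 and TGAGTCA at -74. The Il18r1 promoter shown has TTCTGGGAA at -219 and TTCCCAGAA at -152, and the promoters of its other 2 annotated starts hold no match to any of these motifs. A match describes the letters only, and binding of a factor was not measured.

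Levels are given as the log2 of a gene's processed signal minus the log2 of the 75th percentile of its array, so 0 is that percentile, and the dimmest probes well above background lay at -4.00 to -2.66. Between 39.8% and 48.8% of probes were well above background on an array. Across genes, r was 0.916 to 0.945 between an MEP and an LSK array and 0.966 to 0.985 between arrays within a cell type. The populations carried the markers of their labels: 7 of 8 MEP markers were higher in MEP, with Klf1 at a log2 difference of 6.07, and 8 of 9 LSK markers were lower in MEP, with Cd34 at -6.49. The level of Ezh2 was 3.36 to 4.04 on the Ezh2-deleted and double-mutant arrays and 3.50 to 4.23 on the other arrays, and whether its probe lies in the deleted part was not tested. The median difference of all genes was 0.12 for MEP over LSK and -0.11 for Ezh2 deletion. With the percentile taken over probes detected on all 8 arrays these medians were -0.02 and 0.03.

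Il6 in MEP was -0.43 on the double-mutant array, -0.48 on JAK2V617F, -2.84 on Ezh2-deleted and -3.83 on WT, where the last 2 were not well above background. In LSK, Il6 was -1.99 on the double-mutant array, -2.41 on JAK2V617F, -3.24 on Ezh2-deleted and -4.46 on WT, the last not well above background. In both cell types the 2 arrays with JAK2V617F were above the 2 arrays without it.

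Tnf in MEP was -0.11 on the double-mutant array, 0.68 on JAK2V617F, -0.28 on Ezh2-deleted and -0.57 on WT. The LSK arrays had 2.52 on the double-mutant array, 3.05 on JAK2V617F, 2.21 on Ezh2-deleted and 1.13 on WT. All 4 LSK arrays were above all 4 MEP arrays. Il1b in MEP was -0.84 on the double-mutant array, -0.40 on JAK2V617F, -1.36 on Ezh2-deleted and -1.77 on WT. In LSK it was 0.39 on the double-mutant array, 0.88 on JAK2V617F, -0.96 on Ezh2-deleted and -2.24 on WT. The lowest and the highest Il1b values were both in LSK, so the cell types overlapped. Il1rn, the antagonist, was not well above background on any of the 8 arrays and is given no difference.

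The chemokines differed in which cell type was high. Ccl2 in MEP was -1.21 on the double-mutant array, -1.17 on JAK2V617F, -1.55 on Ezh2-deleted and -2.15 on WT. The LSK arrays had 1.86 on the double-mutant array, 2.81 on JAK2V617F, 1.11 on Ezh2-deleted and 0.21 on WT. For Ccl2, as for Tnf, every LSK array was above every MEP array.

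Ccl3 in MEP was -1.39 on the double-mutant array, -1.97 on JAK2V617F, -3.59 on Ezh2-deleted and -4.04 on WT, the last 2 not well above background. In LSK it was 3.04 on the double-mutant array, 4.99 on JAK2V617F, 3.47 on Ezh2-deleted and 4.56 on WT. Within LSK, Ccl3 was therefore lower on both arrays with deleted Ezh2 than on both with intact Ezh2. Ccl4 in MEP was -1.37 on the double-mutant array, 0.09 on JAK2V617F, -1.34 on Ezh2-deleted and -1.60 on WT. The LSK arrays had 4.12 on the double-mutant array, 5.42 on JAK2V617F, 5.06 on Ezh2-deleted and 5.57 on WT. The WT LSK array had the highest Ccl4 value of the 8.

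Cxcl2 in MEP was -0.14 on the double-mutant array, 0.71 on JAK2V617F, -0.59 on Ezh2-deleted and -1.53 on WT. In LSK it was 2.43 on the double-mutant array, 2.33 on JAK2V617F, 0.66 on Ezh2-deleted and -0.77 on WT. The WT array was the lowest in each cell type. Cxcl10 in MEP was 5.36 on the double-mutant array, 6.30 on JAK2V617F, 5.12 on Ezh2-deleted and 5.08 on WT. The LSK arrays had 4.56 on the double-mutant array, 4.37 on JAK2V617F, 2.83 on Ezh2-deleted and 1.11 on WT. Cxcl10 was the chemokine here whose MEP arrays were all above its LSK arrays.

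Il18r1 in MEP was -1.16 on the double-mutant array, -2.30 on JAK2V617F, -3.19 on Ezh2-deleted and -3.91 on WT, the last 2 not well above background. In LSK it was 2.70 on the double-mutant array, 0.96 on JAK2V617F, 0.34 on Ezh2-deleted and -0.90 on WT. In both cell types the double mutant was highest and JAK2V617F came next. A second Il18r1 probe was at -0.44 on the double-mutant array, -1.88 on JAK2V617F, -2.03 on Ezh2-deleted and -3.30 on WT in LSK, and was not well above background on any MEP array.

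**Figure D1:**
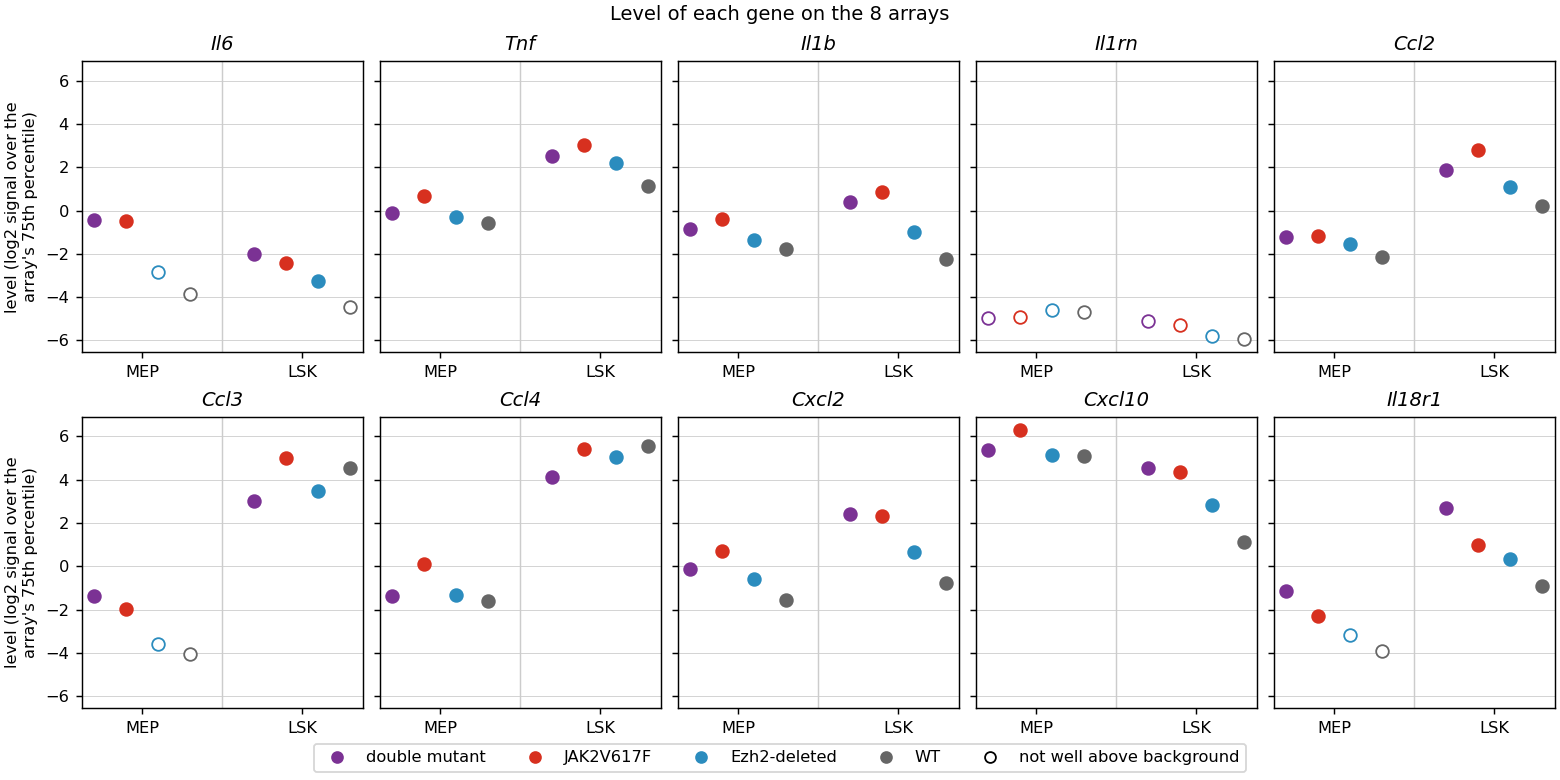
Level of each of the 10 genes (y axis, log2 signal over the array's 75th percentile) on the 8 arrays, with MEP on the left and LSK on the right of each panel, genotypes coloured, and 1 point per array; hollow points were not well above background. Il6, Cxcl2 and Il1b are higher on the arrays with JAK2V617F in both cell types, Ccl3 and Ccl4 are separated by cell type, and Il1rn is below background throughout.

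JAK2V617F was compared with JAK2 wild type over 4 pairs of arrays that share cell type and Ezh2 status, in a limma model with terms for cell type, Ezh2 deletion and JAK2V617F. Il6 and Il18r1 rose with JAK2V617F, and no member fell, so 2 of 9 members passed at an adjusted p below 0.05 over all genes, against 0.220% of all genes called higher. All 9 fitted differences were above 0, as were 51.5% of all genes, and their median was 1.59 against 0.01 over all genes. At an unadjusted p below 0.05, 7 of 9 members were higher, against 5.30% of genes. The members were picked with earlier results of these data known, so these shares describe them and are not a test of the group.

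Il6 averaged -1.33 ± 1.02 with JAK2V617F and -3.59 ± 0.71 with JAK2 wild type (SD, n = 4 arrays each, over both cell types). Its log2 difference was 2.26 (SE 0.31, limma adjusted p = 0.0354), and it was higher in all 4 pairs. Of the 4 JAK2 wild-type arrays, 3 were not well above background. Il6 therefore met the filter on dim probes, which asks for 2 arrays, only through arrays with JAK2V617F. Its p-value sets signal mostly against dim arrays, and the measured change is a bound of at least 3.57-fold. Such a bound sets the dim arrays to the lowest signal that passed as above background on each. Il18r1 averaged 0.05 ± 2.22 with JAK2V617F and -1.91 ± 1.98 with JAK2 wild type (SD, n = 4 arrays each). Its log2 difference was 1.97 (SE 0.20, limma adjusted p = 0.0159), higher in all 4 pairs and at least 2.91-fold. The second Il18r1 probe gave 0.79, higher in 3 of 4 pairs, but it was not well above background on any MEP array. In LSK, where it was, it stood at -1.88 on JAK2V617F against -3.30 on WT. It was at -0.44 on double-mutant LSK against -2.03 on Ezh2-deleted LSK.

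Both calls were lost under several settings. With 1 floor for all dim values the adjusted p was 0.479 for Il6 and 0.410 for Il18r1 and no gene of the 13184 was called, and with normexp background correction it was 0.116 and 0.173. Il18r1 was also lost with the mean of its 2 probes (0.0856), and Il6 with quantile normalization (0.0708), without a filter on dim probes (0.0749) and with the percentile over probes detected on all 8 arrays (0.0870). Without the JAK2V617F MEP array neither gene was called (adjusted p 0.0892 for Il6 and 0.0831 for Il18r1), nor without the double-mutant MEP array (0.208 and 0.117). Il6 was also lost without the WT LSK, JAK2V617F LSK, WT MEP or Ezh2-deleted MEP array, at adjusted p of 0.0533 to 0.0945.

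The other 7 members did not pass in the fit reported here. Cxcl2 had a log2 difference of 1.89 (adjusted p = 0.129), Cxcl10 of 1.61 (0.307), Il1b of 1.59 (0.175) and Ccl2 of 1.17 (0.293). Tnf had 0.91 (0.348), Ccl3 had 1.07 (0.545) and Ccl4 had 0.14 (0.908). The 7 members Il6, Tnf, Il1b, Ccl2, Cxcl2, Cxcl10 and Il18r1 were higher with JAK2V617F in every pair as measured, dim arrays included, as were 7.32% of genes. The same 7 had both JAK2V617F arrays above both JAK2 wild-type arrays within each cell type, as did 3.79% of genes. Cxcl2 passed with a trended variance prior (adjusted p = 0.0268), and Cxcl2 (0.00517), Il1b (0.0132) and Cxcl10 (0.0486) passed when 10477 genes well above background on all 8 arrays were tested, a filter that leaves out Il6 and Il18r1. For Ccl4 the sign of the difference turned with normexp correction (-0.16) and quantile normalization (-0.06).

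Taken array against array, 7 members were at least 2-fold higher in JAK2V617F than in WT LSK, against 3.73% of genes. These were Cxcl10 (9.57-fold), Il1b (8.69-fold), Cxcl2 (8.59-fold), Ccl2 (6.07-fold), Tnf (3.80-fold), Il18r1 (3.64-fold) and Il6 (at least 3.01-fold). In double-mutant over Ezh2-deleted LSK 5 members were, against 3.30% of genes, with Il18r1 at 5.12-fold and Cxcl2 at 3.41-fold. In JAK2V617F over WT MEP 6 members were, against 2.70% of genes, with Il6 at least 4.79-fold, Cxcl2 4.75-fold and Ccl4 3.23-fold. In double-mutant over Ezh2-deleted MEP the 3 were Il6 (at least 4.70-fold), Il18r1 (at least 2.84-fold) and Ccl3 (at least 2.42-fold), against 2.76% of genes. These folds compare single arrays and have no replicate check.

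**Figure D2:**
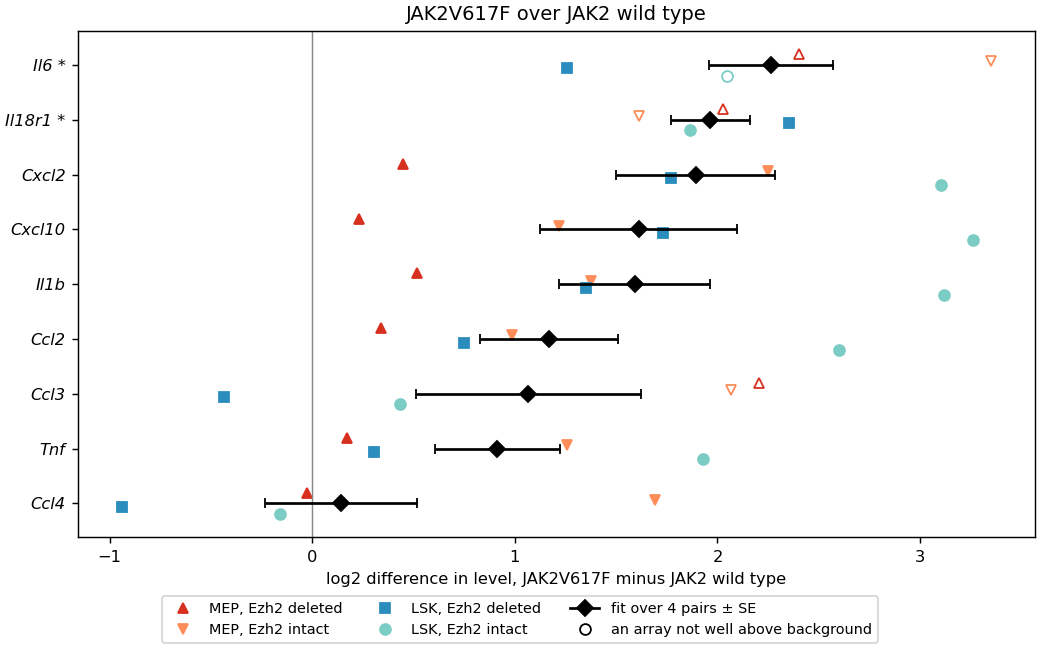
Log2 difference of JAK2V617F minus JAK2 wild type (x axis) for the 9 genes tested; small symbols are the 4 pairs of arrays, hollow where an array was not well above background, and black diamonds are the limma estimate with bars of 1 SE. Il6 and Il18r1, marked with an asterisk, passed the adjusted threshold, and in 5 of the other genes the LSK pair with intact Ezh2 is the farthest right.

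Within LSK alone no member passed for JAK2V617F (lowest adjusted p 0.0732, Il18r1), where 0.152% of genes passed in either direction. At an unadjusted p below 0.05, 6 members were higher, against 10.2% of genes. Within MEP no member passed either (lowest adjusted p 0.0700, Il6), where 0.159% of genes did, and 4 members were higher at an unadjusted p below 0.05, against 4.45% of genes. The fit within each cell type has 1 pair per Ezh2 status. The difference between the 2 cell types in the JAK2V617F effect was called for no gene (0.00%) and no member. At an unadjusted p below 0.05 it picked Ccl3 (2.14 in MEP minus LSK), Il6 (1.23) and Cxcl10 (-1.77), against 11.5% of all genes. For Ccl3 and Il6 both JAK2 wild-type MEP arrays were not well above background, so these sizes are not measured. As bounds, the Ccl3 differences in MEP were at least 0.77 with intact and 1.28 with deleted Ezh2.

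Genes of mature myeloid cells moved along with JAK2V617F. Of 7 neutrophil markers tested, 5 rose: Camp (2.86), Ngp (2.83), S100a9 (2.79), S100a8 (2.69) and Lcn2 (2.46), at limma adjusted p of 0.0159 to 0.0439. The summed neutrophil level, on the linear scale relative to each array's 75th percentile, was 65.0 and 66.4 in JAK2V617F and double-mutant LSK and 5.48 and 18.4 in WT and Ezh2-deleted LSK. In MEP it was 124 and 189 in JAK2V617F and double-mutant cells and 15.3 and 32.4 in WT and Ezh2-deleted cells. Mmp9 was the marker of that list not above background on any array.

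All 10 monocyte and macrophage markers tested had differences above 0, and 1 of them, Cx3cr1, rose (2.08, adjusted p = 0.0403). Their sum was 122 and 59.5 in JAK2V617F and double-mutant LSK and 36.4 and 27.1 in WT and Ezh2-deleted LSK, and in MEP 15.8 and 16.5 against 10.5 and 11.7. Of the 6 mast cell and basophil markers tested, 5 had differences above 0, with a median of 0.43 and a lowest of -0.30. Only Fcer1a, a subunit of the IgE receptor, was called (2.26, limma adjusted p = 0.0195). The list's sum was 33.8 and 27.3 in JAK2V617F and double-mutant LSK and 10.3 and 15.2 in WT and Ezh2-deleted LSK. In MEP that sum was 3.74 and 3.10 against 2.88 and 1.64, and Ms4a2 was not above background on any array. The 9 immediate early genes, which respond to handling and stress, all had differences above 0 (0.29 to 0.90), and none passed. The part of these cells and genes in the JAK2V617F result was not tested. In bulk samples, more cells of a type and more RNA per cell cannot be told apart.

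The genes around the members in the same pathways were called neither higher nor lower with JAK2V617F. The lists were 13 receptors (11 tested), other cytokines (10 tested), other chemokines (9 tested), 15 sensing and processing genes and 11 feedback and decay genes, with medians of -0.20, -0.02, 0.66, 0.24 and 0.29. Csf2, the cytokine GM-CSF, had 2.31 and did not pass (limma adjusted p = 0.0501). It was well above background on 3 arrays only, JAK2V617F LSK, double-mutant LSK and JAK2V617F MEP. Csf2 thus passed the filter on dim probes only through arrays with JAK2V617F. Its difference sets signal against dim arrays and is not a measured size. Tlr2, a sensor of bacterial lipoproteins, had 1.42 (adjusted p = 0.0802), and Cd14, a co-receptor of Toll-like receptors, had 1.99 (0.0943).

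Ezh2 deletion was compared with intact Ezh2 over the 4 pairs that share cell type and JAK2 status. Il18r1 rose with Ezh2 deletion and no other member passed, 1 of 9 against 0.660% of genes called higher. Il18r1 averaged -0.33 ± 2.48 with deleted Ezh2 and -1.53 ± 2.07 with intact Ezh2 (SD, n = 4 arrays each), a log2 difference of 1.21 (SE 0.20, limma adjusted p = 0.0444). The single pairs were 1.74 in JAK2V617F LSK, 1.24 in JAK2 wild-type LSK, 1.14 in JAK2V617F MEP and 0.72 in JAK2 wild-type MEP, where both arrays were below background. The second probe gave 0.88 and was higher in all 4 pairs. It was not well above background on any MEP array, so only its LSK pairs were measured.

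This call was lost in 7 of 8 fits that left out an array, at adjusted p of 0.0667 to 0.167, and held without the WT MEP array. It was also lost with normexp correction (0.231), quantile normalization (0.103), no filter on dim probes (0.0997), the mean of the 2 probes (0.142) and a common floor (0.264).

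Ezh2 status was tied to other differences between the donors. Xist, expressed from the inactive X chromosome of females, was at 1.57 to 2.99 on the 4 arrays with deleted Ezh2 and at -3.07 or less on the others, and Eif2s3y, a Y-linked gene, was at 2.53 to 3.56 on the arrays with intact Ezh2 and below background on the rest. Sex of the cells and Ezh2 status cannot be told apart in these arrays. Of the 5 B cell markers tested, Vpreb3 rose (5.92, limma adjusted p = 0.0129). Vpreb3 was well above background only on the 4 arrays with deleted Ezh2 and passed the filter on dim probes only through them. Its difference sets signal against dim arrays and is not a measured size. The list's summed level in LSK was 62.2 on the Ezh2-deleted array, against 16.8 on WT, and in MEP 48.6 against 2.56. In the double mutant this sum was 20.9 in LSK and 6.66 in MEP, against 22.1 and 3.23 in JAK2V617F cells. These 2 LSK sums mostly follow Cd79b, the brightest gene of the list there, at 4.08 in the double mutant against 4.37. Vpreb1 was higher in double-mutant LSK, at 1.44 against 0.34. Of the 5 T and NK cell markers tested, 4 had differences above 0 and the lowest was -0.67 (Nkg7). Gzma rose (1.76, limma adjusted p = 0.0202), while Cd3g, Cd3d and Ncr1 were never above background. Of the 4 arrays with Gzma well above background, JAK2V617F LSK was the only one with intact Ezh2. Gzma thus met the filter on dim probes only through arrays with deleted Ezh2, and its difference is not a measured size. The summed level of this list was lower with Ezh2 deletion in every pair. That sum mostly follows Nkg7, by far the brightest gene of the list (6.08 on WT LSK, against 1.07 for Cd3e), and not the other markers. In LSK it was 42.2 on Ezh2-deleted against 70.3 on WT, and 66.9 on the double mutant against 115 on JAK2V617F. In MEP these sums were 26.9 against 30.0, and 29.5 against 49.3. The part of these B, T and NK cell genes in the Ezh2 result was not tested.

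The other 8 members had differences of -0.75 (Ccl4) to 0.67 (Il6), none called. Il6 and Il18r1 were higher with Ezh2 deletion in all 4 pairs when dim arrays were included, as were 10.6% of genes. For both genes, neither array of the JAK2 wild-type MEP pair was well above background. Il6 was also dim on the WT LSK array, and its difference in the JAK2V617F MEP pair was 0.05. Within LSK no member passed (0.152% of genes did), and 3 had an unadjusted p below 0.05, Il18r1 (1.49), Il6 (0.82) and Ccl3 (-1.52), against 9.27% of genes. Within MEP no member passed (0.614% did), and Il18r1 (0.93) had an unadjusted p below 0.05, against 12.9% of genes. The Ezh2 effect differed between MEP and LSK for 0.00758% of genes and no member. Ccl3, at 2.04 in MEP minus LSK (limma adjusted p = 0.340), had an unadjusted p below 0.05, as did 5.26% of genes. Both arrays of its JAK2 wild-type MEP pair were below background. None of the 5 pathway lists had a gene called for Ezh2 deletion.

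Ezh2-deleted and WT arrays differed by at least 2-fold upward for 5 members in LSK, against 3.89% of genes. These were Cxcl10 (3.28-fold), Cxcl2 (2.69-fold), Il1b (2.42-fold), Il18r1 (2.37-fold) and Tnf (2.12-fold), while Ccl3 was 2.13-fold lower. In MEP none of the 6 members with a value was 2-fold apart, against 3.25% of genes higher. Double-mutant over JAK2V617F LSK had 1 member higher, Il18r1 (3.33-fold), against 4.48% of genes, and 2 lower, Ccl3 (3.88-fold) and Ccl4 (2.46-fold), against 1.55% of genes lower. In MEP, Il18r1 was 2.20-fold higher, against 4.95% of genes higher, and Ccl4 was 2.74-fold lower, against 7.47% of genes lower.

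The interaction of Ezh2 deletion and JAK2V617F asks whether the Ezh2 difference is the same with and without the mutant kinase. It was called for 0.00% of genes and no member, with adjusted p of 0.970 or more. Of 9 members, 8 had a negative estimate, with a median of -1.25 against -0.10 over all genes, of which 40.9% were above 0. Tnf (-1.35) and Cxcl2 (-1.57) had an unadjusted p below 0.05, against 3.36% of genes. Il18r1 was the member with a positive estimate, 0.45 (SE 0.39). Tnf illustrates the pattern of values: the Ezh2 difference was -0.54 in LSK and -0.79 in MEP with JAK2V617F, and 1.09 in LSK and 0.30 in MEP without it.

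**Figure D3:**
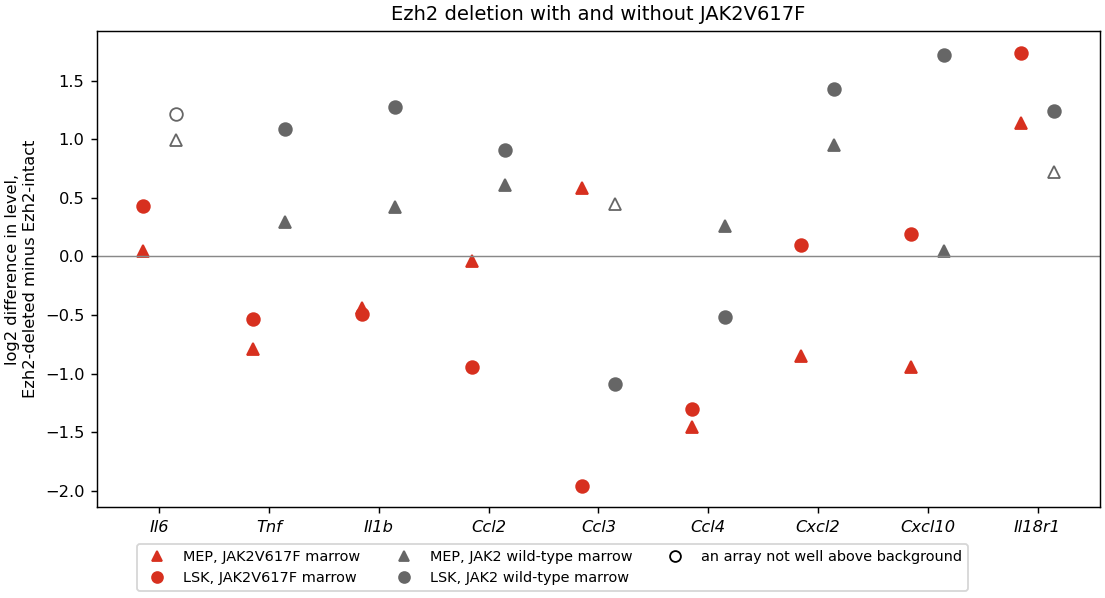
Log2 difference of Ezh2-deleted minus Ezh2-intact arrays (y axis) for the 9 genes tested, with pairs carrying JAK2V617F in red on the left and JAK2 wild-type pairs in grey on the right of each gene; triangles are MEP, circles LSK, and hollow symbols have an array not well above background. For Tnf, Il1b and Ccl2 the red points lie below 0 and the grey points above it, and all 4 Il18r1 points lie above 0.

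The double mutant was set against WT on single arrays. In LSK 7 members were at least 2-fold higher, against 5.63% of genes, and 2 were at least 2-fold lower, against 2.11%. Il18r1 was 12.1-fold higher, Cxcl10 10.9-fold, Cxcl2 9.18-fold, Il1b 6.17-fold, Ccl2 3.15-fold, Tnf 2.62-fold and Il6 at least 4.04-fold. Ccl3 was 2.88-fold lower and Ccl4 2.74-fold lower. In MEP 4 members were at least 2-fold higher, against 5.55% of genes: Il6 (at least 4.95-fold), Il18r1 (at least 2.99-fold), Cxcl2 (2.63-fold) and Ccl3 (at least 2.55-fold). These comparisons share the WT arrays with those of the single mutants.

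MEP were compared with LSK over the 4 genotypes. Cxcl10 and Il6 were higher in MEP (2 of 9, against 19.9% of genes called higher), and Ccl3, Ccl4, Il18r1, Ccl2, Tnf and Cxcl2 were lower (6 of 9, against 20.1% called lower). Ccl3 averaged -2.75 ± 1.27 in MEP and 4.02 ± 0.91 in LSK (SD, n = 4 arrays each), at least 73.9-fold lower in MEP (log2 difference -6.76, SE 0.56, limma adjusted p = 7.21e-05). Ccl4 averaged -1.05 ± 0.77 in MEP and 5.04 ± 0.65 in LSK, 68.4-fold lower in MEP (log2 difference -6.10, SE 0.37, adjusted p = 1.95e-05 by limma). Both chemokines were lower in MEP in every genotype.

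Ccl2 was 8.09-fold lower in MEP (log2 difference -3.02), Il18r1 at least 7.96-fold lower (-3.42), Tnf 4.91-fold lower (-2.30) and Cxcl2 2.92-fold lower (-1.55, adjusted p = 0.0164). Cxcl10 averaged 5.46 ± 0.57 in MEP and 3.22 ± 1.60 in LSK (SD, n = 4 arrays each), 4.74-fold higher in MEP (log2 difference 2.25, SE 0.48, limma adjusted p = 0.00841). Its difference was 0.79 in the double mutant, 1.93 in JAK2V617F, 2.30 in Ezh2-deleted and 3.97 in WT. Il6 had a log2 difference of 1.13 (adjusted p = 0.0215), but both cell types had arrays below background and no fold is given. In the 2 pairs with both arrays measured it was 1.56 in the double mutant and 1.93 in JAK2V617F. Il6 was not called without the WT LSK, double-mutant LSK or double-mutant MEP array (adjusted p 0.0537 to 0.0627) or with a common floor (0.141) or the percentile over probes detected on all 8 arrays (0.0568), and Cxcl2 was not called without the Ezh2-deleted LSK array (0.0536). Il1b, at -0.61, did not pass (adjusted p = 0.222); it did without the WT LSK array (-1.04, 0.0219).

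**Figure D4:**
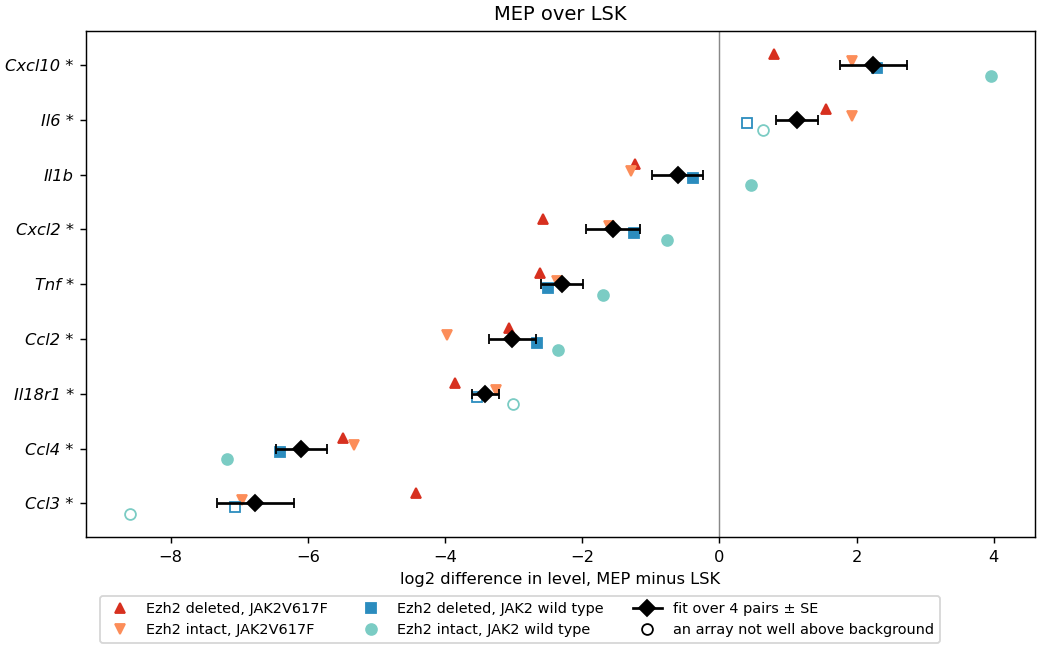
Log2 difference of MEP minus LSK (x axis) for the 9 genes tested; small symbols are the 4 genotypes, hollow where an array was not well above background, black diamonds are the limma estimate with bars of 1 SE, and an asterisk marks genes that passed the adjusted threshold. Ccl3 and Ccl4 lie farthest to the left and Cxcl10 farthest to the right.

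The pathway lists leaned the same way as most members between the cell types. The counts here are of genes called, against 20.1% of all genes called lower in MEP and 19.9% called higher. Of 11 receptors tested, 10 were lower in MEP, with Il18rap, the partner of Il18r1, at -3.94, the interleukin 1 receptor Il1r1 at -4.80, the shared signalling chain Il6st at -3.34 and the tumour necrosis factor receptor Tnfrsf1b at -2.29. Of 10 other cytokines 9 were lower in MEP, among them Il15 (-3.90) and Il18 (-5.27), the ligand of Il18r1. Of 9 other chemokines, 4 were lower, with Ccl9 at -6.63, and 2 were higher, Ccl17 (3.33) and the platelet factor Pf4 (2.09). Of 15 sensing and processing genes 8 were lower, with Tlr4 at -2.68 and Casp1 at -2.31, and of 11 feedback and decay genes 6 were lower, with Socs3 at -2.71, and 1 was higher, Nfkbia (0.98). Il18rap, Il15, Il18 and Tlr4 were well above background on LSK arrays only and passed the filter on dim probes through them. Il6st, Il1r1 and Tnfrsf1b were each dim on 3 MEP arrays, and Ccl9 on 1. The differences of all these genes set LSK signal against dim MEP arrays and are not measured sizes. Monocyte and macrophage markers were lower in MEP in 9 of 10 cases and neutrophil markers higher in 5 of 7. The part of such cells in the differences between MEP and LSK was not tested.

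Across the 8 arrays, after removing the mean of each cell type, Tnf, Il1b, Ccl2, Cxcl2 and Cxcl10 varied together, with Pearson r between pairs of 0.882 to 0.975. These 5 were grouped after their values were seen, and all points share arrays and scaling. Ccl4 correlated with those 5 at -0.12 to 0.22, and with Ccl3 at 0.625. Il6 was nearest to Il18r1 among the members (0.881). Values of dim arrays entered all these correlations as measured, on 3 of 8 arrays for Il6 and on 2 each for Ccl3 and Il18r1. Among 12245 genes, the 3 most like Il6 were 6030498E09Rik (0.983), Nmb (0.974) and the neutrophil gene S100a8 (0.972). Those most like Cxcl2 were Il1b (0.975), Cd55 (0.975) and the neutrophil granule gene Ngp (0.970), and those most like Il1b were Hemk1 (0.992), the granule gene Ltf (0.979) and Gpr3 (0.978).

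The genes most like Il18r1 were Plek2 (0.987), Cpne7 (0.982) and Gm5547 (0.978). For Tnf they were Tmem89 (0.976), Rnd3 (0.964) and Hspb1 (0.961), for Ccl2 Dock4 (0.996), Snhg17 (0.981) and Atg12 (0.977), and for Cxcl10 Tmem253 (0.975), Gadd45g (0.973) and Egr2 (0.973). For Ccl3 they were Hk3 (0.973), Ikbke (0.972) and Vcam1 (0.966), and for Ccl4 Slc25a28 (0.992), Dhx57 (0.970) and Mink1 (0.964).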

How the data were processed

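One-colour Agilent arrays of 8 samples, 1 per group, were used. The scanner files deposited by the authors hold processed signal intensity, made with Agilent Feature Extraction 10.7.1.1 per the file headers. The authors also deposited a table for the series, whose linear ratio is that intensity divided by a value near each array's 75th percentile, as its values show. No aligner or build applies.

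Outlier spots were left out, spots of a probe averaged, and log2 values, computed here from the deposited intensities, set relative to the array's 75th percentile. Of 55681 probes, 27509 matched a gene by RefSeq accession (GRCm38.p6). A gene was read from its brightest probe and tested if well above background on at least 2 of 8 arrays. Differences came from limma 3.58.1 under R 4.3.3 (lmFit, eBayes, Benjamini-Hochberg over 13184 genes, threshold 0.05): an additive fit, fits within each cell type, and an interaction fit. The 8 arrays share 1 slide and 1 scan, with cell types in rows and genotypes in columns, so place on the slide and group cannot be told apart. The number of arrays limits the precision, and p-values measure only the spread between these arrays.

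The fits were tested on simulated data with known changes. The members and lists were chosen with earlier results of these data known. Named were all members, called genes of each list (up to 4 per direction) and the 3 genes most like each member; Tlr2, Cd14 and Csf2 were named after their values were seen. Alternatives were normexp with an offset of 50 (on the median signals of the files), quantile normalization, the deposited table, other filters, probe rules and floors, a trended prior, and leaving out each array. The percentile over probes detected on all arrays was added after seeing the data. One marker of the lists is not reported here.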

Additional observations from a re-analysis of the deposited data

Results flagged for a closer look

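The Ezh2 difference had opposite signs with and without JAK2V617F for 3 members. The estimate of that difference between the marrows, JAK2V617F minus JAK2 wild type, was -1.35 for Tnf, -1.31 for Il1b and -1.25 for Ccl2, each with a limma adjusted p of 0.970, and both cell types showed the same signs for each. For Ccl3 the Ezh2 difference was below 0 in both LSK pairs and above 0 in both MEP pairs, and the MEP minus LSK estimate was 2.04 with an adjusted p of 0.340; in the JAK2 wild-type MEP pair both arrays were below background. No group has more than 1 array, and arrays were not checked for standing apart within a group.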

How the results depend on the processing

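For JAK2V617F, 2 members were called; 0 were under normexp correction and under a common floor for dim values, 1 under quantile normalization, without a filter, with the mean of all probes and with the percentile over probes above background on all arrays, 3 with a trended prior (Cxcl2 added), 3 of the 6 still tested under the filter on all 8 arrays (Il1b, Cxcl2 and Cxcl10), and 0 to 2 when an array was left out. For Ezh2 deletion, 1 was called; 0 were under normexp, quantile, no filter, probes above background on all 8 arrays (where Il18r1 is not tested), the mean of probes and the common floor, and 0 to 1 when an array was left out. For MEP over LSK, 8 were called, 5 of the 6 still tested under the all-array filter, and 7 to 8 when an array was left out. Within LSK no member was called for JAK2V617F, but 4 were under normexp, 3 under the all-array filter, 3 with a trended prior, 1 at an adjusted p below 0.10 and 0 to 4 when an array was left out. Within MEP these were 1 under normexp, 3 with a trended prior, 3 at 0.10 and 0 to 3 when an array was left out. For Ezh2 deletion within LSK normexp called 1. A fit within a cell type that lost an array has 1 pair fewer and borrows its spread from the other cell type. The cause of these changes was not tested.

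At 3-fold in place of 2-fold, counts are given out of the members at least 2-fold apart in either direction, not out of all members tested. They were 7 of 7 in JAK2V617F over WT LSK, where 9 members had a value (1.41% of genes higher). In double-mutant over WT LSK they were 6 of 9 (2.09%). There were 3 of 5 in double-mutant over Ezh2-deleted LSK (0.958%), 2 of 3 in double-mutant over JAK2V617F LSK (1.59% higher and 0.459% lower), 1 of 6 in Ezh2-deleted over WT LSK (1.46%), 3 of 6 in JAK2V617F over WT MEP (0.893%), 1 of 3 in double-mutant over Ezh2-deleted MEP (0.804%), 0 of 2 in double-mutant over JAK2V617F MEP (1.51% higher and 0.633% lower) and 1 of 4 in double-mutant over WT MEP (2.00%). Normexp gave 1, 1 and 1 for these last 3 pairs, and quantile normalization gave 1 for double-mutant over JAK2V617F MEP.

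Signs turned in uncalled differences. For JAK2V617F, Ccl4 was at -0.16 with normexp, -0.057 with quantile normalization and, when an array was left out, between -0.28 (without WT MEP) and 0.45, with -0.21 without JAK2V617F MEP. For Ezh2 deletion, leaving out an array gave Tnf -0.30 to 0.27, Il1b -0.24 to 0.52, Ccl2 -0.19 to 0.53, Ccl3 -1.04 to 0.13 and Cxcl10 -0.34 to 0.77. No paired analysis by replicate number was possible because each group has 1 array, numbered 1; the fits compare arrays matched on the other factors. Signal over background limits Il6, Ccl3, Il18r1 and Il1rn, which have arrays given only as bounds.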
